A study of Mus musculus with 16 samples.

Results

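Elavl2, Elavl3, Elavl4, Nova1, Nova2, Rbfox1, Rbfox2, Rbfox3, Ptbp2 and Srrm4 encode RNA-binding proteins and splicing regulators of neurons. Some of them are also made in other cells. They were chosen by name, as the rows of the count table whose Ensembl identifier carries these symbols, and they are 10 of its 53801 genes. The RNA sequenced was that of 2 brain tissues, cortex and striatum, of C57BL6/J-129sv mice aged 10 days. The control mice had the genotype Trrap Fl/+ and the Trrap-FBΔ mice Trrap Fl/Fl, and mice of both genotypes carried the Camk2-Cre transgene, which the methods name as Tg(Camk2a-cre/ERT2)2Gsc. Each of the 4 groups has 4 libraries, 16 in all, from 9 mice by the numbers in the labels. All 4 Trrap-FBΔ mice (57, 59, 60 and 61) supplied a cortex and a striatum, as did controls 58, 63 and 64, while control 55 supplied only a cortex and control 65 only a striatum. Females made up 2 of 4 control cortices, 1 of 4 control striata and 3 of 4 libraries in either Trrap-FBΔ tissue, and the rest were males. The transgene acts in forebrain glutamatergic neurons, whereas RNA was taken from whole tissue, so the counts also hold the cells in which Trrap was not targeted.

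The Elavl genes encode the Hu proteins, which bind U-rich and AU-rich stretches of mRNA and act on its stability, translation and splicing; Elavl3 and Elavl4 are restricted to neurons. Nova1 and Nova2 bind clusters of YCAY and direct the splicing of transcripts of the synapse. Rbfox proteins bind UGCAUG and include or skip the exon according to where the site lies, and Rbfox3 is the antigen known as NeuN. Ptbp2 takes over from its paralog Ptbp1 when neuronal progenitors differentiate and holds back exons of the adult form until neurons mature. Srrm4 promotes the inclusion of microexons, very short exons found in neuronal transcripts, and acts on the splicing of Rest.

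The deposited counts covered the 10 genes deeply, with the lowest count in a library, 1910, at Srrm4 and the highest, 19065, at Rbfox2, out of totals between 28743866 and 48761429 counts per library. Levels are given as CPM, counts scaled to the library size after TMM normalization over the 16 libraries, and levels are compared between genes only as CPM per kilobase of exon. Differences were tested with the quasi-likelihood test of edgeR on the counts, with Benjamini-Hochberg adjustment over all genes tested and a threshold of 0.05 on the adjusted p, and SE is the standard error of the log2 fold change. In the build GRCm38 all 10 are annotated as protein-coding genes. Elavl3 (ENSMUSG00000003410, chr9:22015005-22052023, minus strand) shares 256 exonic bases with Gm49318 on its own strand. Nova1 (ENSMUSG00000021047, chr12:46694517-46818929, minus strand) shares 310 with Gm33869, so reads in these stretches could belong to either gene.

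The libraries labelled striatum were checked against markers before the levels were read. Summed over 10 genes of striatal projection neurons, such as Ppp1r1b and Drd1, the control striata held 362 to 1628 CPM (median 724) and the control cortices 524 to 1173 CPM (median 816), so the labelled striata were not higher in these markers. Of these 10 genes 1 was higher and 1 lower in the control striata than in the control cortices by edgeR. Ppp1r1b, the gene of DARPP-32, stood at 19.4 CPM in the striatum of mouse 58 and 299.5 CPM in that of mouse 64, with 97.5 and 89.0 CPM in the other control striata. The control cortices also differed among themselves, with sums of the same 10 genes of 1071 and 1173 CPM in mice 58 and 63 against 524 and 561 CPM in mice 55 and 64. The tissues did differ in the 8 markers of excitatory neurons, whose sum was 1402 to 2012 CPM in control striata and 3493 to 4273 CPM in control cortices. Within that list Slc17a6, the vesicular glutamate transporter of subcortical neurons, went the other way, with 201 to 340.2 CPM in control striata and 44.2 to 75.9 CPM in control cortices. Tcf7l2, a gene of the thalamus and midbrain chosen after its values were seen, was at 86.5 to 138 CPM in control striata and 6.18 to 14.6 CPM in control cortices. The sum of 10 oligodendrocyte markers was 3326 to 9052 CPM in control striata and 1975 to 3234 CPM in control cortices. What is called striatum below is therefore the tissue that carries this label.

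**Figure D1:**
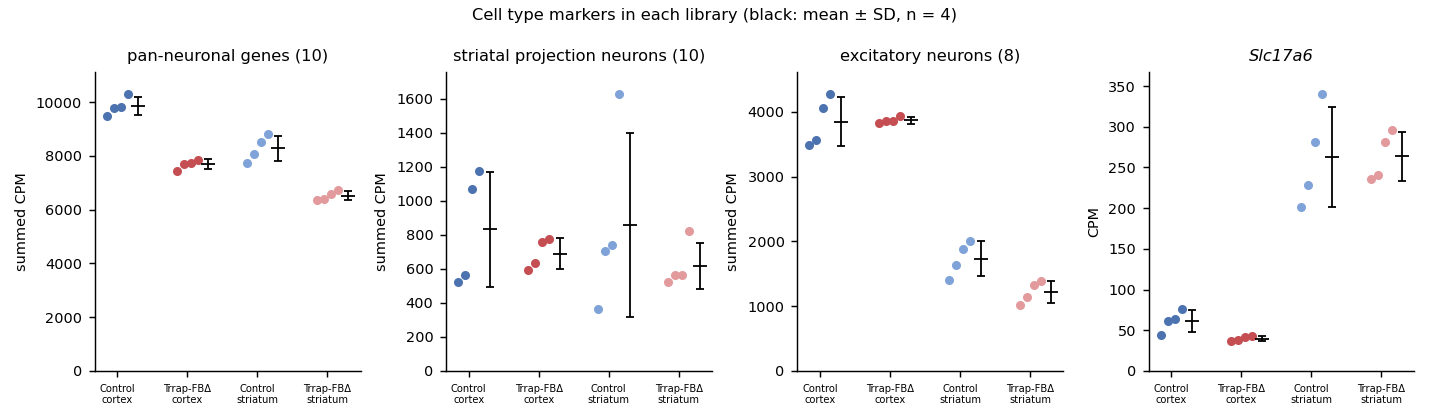
Marker levels of cell types in each of the 16 libraries, by group on the x axis. The y axes give CPM, summed over the list or for Slc17a6, points are libraries and black bars the mean with its SD. Striatal projection neuron markers overlap between the tissues, with 362 to 1628 CPM in control striata and 524 to 1173 CPM in control cortices, while Slc17a6 lies at 201 CPM or more in all 8 striata and at 75.9 CPM or less in all 8 cortices.

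Cell type markers also moved with the genotype. The summed level of 10 pan-neuronal genes was 9493 to 10298 CPM in control cortices and 7446 to 7863 CPM in Trrap-FBΔ cortices, and 7738 to 8794 CPM against 6370 to 6734 CPM in the striatum. Of these 10 genes 7 fell in the cortex and 5 in the striatum, among them Tubb3, a neuronal tubulin, with log2 fold changes of -1.29 (SE 0.101, edgeR adjusted p = 1.5e-05) and -1.0 (SE 0.0884, edgeR adjusted p = 0.00012). Of 8 markers of immature neurons 4 fell and 1 rose in the cortex and 3 fell in the striatum. The excitatory markers summed to 1402 to 2012 CPM in control striata and 1012 to 1385 CPM in Trrap-FBΔ striata, where 5 of 8 fell, whereas in the cortex 2 of 8 fell and the sums overlapped. All 10 oligodendrocyte, 8 microglial and 7 endothelial markers fell in the cortex, against 3, 6 and 1 in the striatum, and 0 of the 10 striatal projection neuron markers passed the test for the genotype in either tissue. Of 8 interneuron markers 1 rose in each tissue, of 8 astrocyte markers 2 rose and 2 fell in the cortex and 2 rose and 1 fell in the striatum, and 0 of 5 blood markers passed. None of the markers named here is one of the 10 genes, and their part in the differences that follow was not tested. In bulk tissue, fewer cells of a type and less RNA per cell cannot be told apart.

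Trrap itself was counted over the whole gene and in all cells of the tissue. Its level was 136 to 173 CPM in control cortices and 121 to 146 CPM in Trrap-FBΔ cortices, a log2 fold change of -0.18 (SE 0.0752, edgeR adjusted p = 0.083). In the striatum it was 140.0 to 151 CPM and 135 to 148 CPM, with a log2 fold change of -0.044 (SE 0.0477, edgeR adjusted p = 0.52). The exact permutation test, 2-sided, gave p = 0.11 and p = 0.34. In the cortex Trrap passed without the filter on low counts (edgeR adjusted p = 0.046), with all 16 libraries in 1 fit (0.047) and without the control cortex of mouse 63 (0.034). The paper reports an efficient deletion of Trrap at this age, from western blots of the forebrain and from qPCR.

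To ask how the 10 genes differed with the genotype, Trrap Fl/Fl was compared with Trrap Fl/+ within each tissue, with the transgene in both. In the cortex Elavl3, Elavl4 and Rbfox2 fell and Nova1 rose. In the striatum Elavl3, Rbfox2 and Srrm4 fell and Nova1 rose. In each tissue these were 4 of 10 genes, 1 higher and 3 lower. In the cortex 33.3% of 18268 genes tested passed, 15.7% higher and 17.6% lower, and in the striatum 30.2% of 18872 passed, 14.4% higher and 15.8% lower, so the count of 4 in 10 is close to that of all genes. The groups were apart, with no overlap between the libraries, for the same 4 genes in the cortex, beside 32.7% of all genes. In the striatum they were apart for Nova1, Rbfox2 and Srrm4, beside 31.6% of all genes. The median log2 fold change of the 10 genes was -0.11 for the cortical and -0.069 for the striatal comparison, against 0.001 and -0.0055 over all genes. All called changes of the 10 genes were of 0.42 or less on the log2 scale, while the median size over all genes called was 0.34 for cortical and 0.37 for striatal calls.

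**Figure D2:**
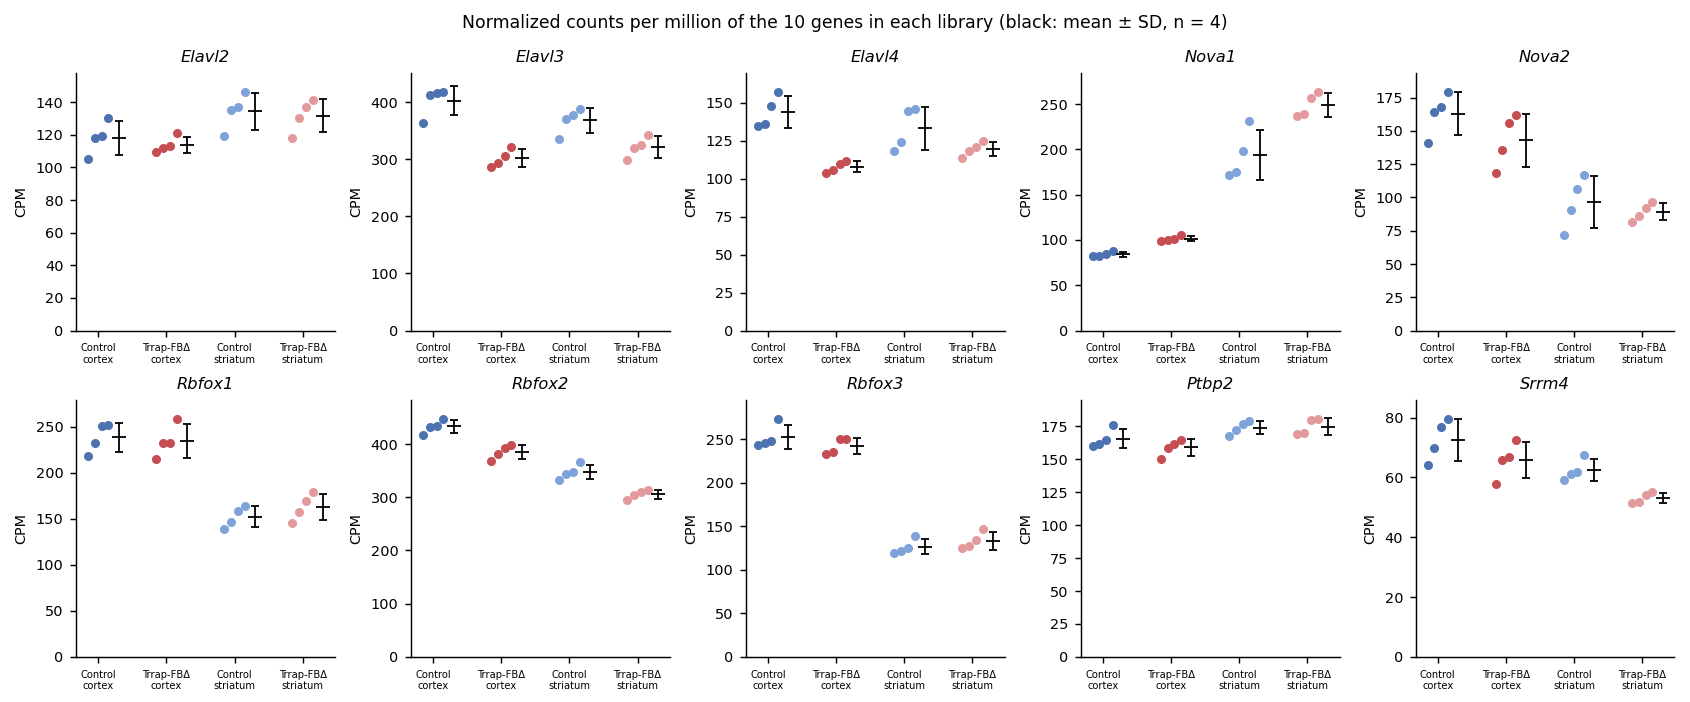
CPM of each of the 10 genes (y axis, from 0) in the 16 libraries, grouped by genotype and tissue on the x axis. Points are libraries and black bars the mean with its SD, n = 4. Elavl3 and Elavl4 lie lower in all 4 Trrap-FBΔ cortices than in any control cortex, Nova1 lies higher, and Nova1 and Rbfox3 differ most between the tissues, with control means of 84.1 and 194 CPM and of 253 and 126 CPM in cortex and striatum.

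The promoters of 4 of these genes are shown because the genes behaved differently: Elavl3 fell in both tissues, Elavl4 fell in the cortex, Nova1 rose in both and Ptbp2 passed the test in neither. The sequences are the 250 bases before the start site in RefSeq (GRCm38.p6), written 5′ to 3′ on the strand of the gene. Capitals mark the GC box, GGGCGG or CCGCCC on the other strand, the core of the element bound by the transcription factor Sp1.
Elavl3 (chr9:22052024-22052273, minus strand): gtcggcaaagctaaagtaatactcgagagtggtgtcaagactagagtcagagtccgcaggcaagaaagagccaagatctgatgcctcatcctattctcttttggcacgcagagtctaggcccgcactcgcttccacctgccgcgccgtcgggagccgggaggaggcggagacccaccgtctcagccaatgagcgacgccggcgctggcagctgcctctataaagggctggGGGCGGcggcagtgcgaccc
Elavl4, the most upstream of its 4 starts (chr4:110351912-110352161, minus strand): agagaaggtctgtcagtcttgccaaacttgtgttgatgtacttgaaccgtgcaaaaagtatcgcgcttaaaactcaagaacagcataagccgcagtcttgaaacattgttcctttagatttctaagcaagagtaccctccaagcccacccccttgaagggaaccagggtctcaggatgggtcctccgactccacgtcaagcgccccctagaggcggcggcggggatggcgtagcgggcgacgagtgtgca
Nova1 (chr12:46818768-46819017, minus strand): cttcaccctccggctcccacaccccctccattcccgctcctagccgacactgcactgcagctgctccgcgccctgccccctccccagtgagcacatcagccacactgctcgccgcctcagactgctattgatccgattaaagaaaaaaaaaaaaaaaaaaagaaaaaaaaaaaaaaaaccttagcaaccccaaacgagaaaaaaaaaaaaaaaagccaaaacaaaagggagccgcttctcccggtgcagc
Ptbp2 (chr3:119783389-119783638, minus strand): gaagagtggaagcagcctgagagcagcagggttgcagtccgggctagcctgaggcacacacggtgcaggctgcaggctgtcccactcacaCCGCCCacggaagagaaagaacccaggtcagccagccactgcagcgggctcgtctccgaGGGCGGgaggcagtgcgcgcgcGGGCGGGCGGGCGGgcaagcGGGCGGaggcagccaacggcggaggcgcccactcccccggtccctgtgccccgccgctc

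The window of Elavl3 held 1 GC box, close to the start, and that of Ptbp2 held 6, with overlapping copies counted separately. No match was found at any of the 4 starts of Elavl4 or at that of Nova1. RefSeq listed 18 starts for 9 of the 10 genes, all but Rbfox2, and 8 of the 18 windows held a GC box, at Elavl2 (up to 3), Elavl3, Nova2 (2) and Ptbp2. Over all 32851 promoter windows of the same length 32.7% held at least 1, and 8.47% held 3 or more. Several windows of Elavl2 overlap, so the same GC boxes were counted there more than once. By gene, 4 of the 9 held a GC box in at least 1 window, beside 35.4% of 27025 genes. The G and C content of the window was 61.6% for Elavl3, 53.6% for Elavl4, 50% for Nova1 and 72.4% for Ptbp2, beside a median of 52.4% over all windows. A match in these windows describes the sequence only, and the counts say nothing of what binds there.

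Among the Hu genes, Elavl3 had the highest level per exon length of the 10 genes in control cortex, control striatum and Trrap-FBΔ striatum. Elavl3 stood at 415, 413, 364 and 417 CPM in control cortices (mice 55, 58, 63 and 64) and at 287, 294, 306 and 322 CPM in the Trrap-FBΔ cortices of mice 57, 59, 60 and 61. Every Trrap-FBΔ cortex lay below every control cortex, and the log2 fold change was -0.41 (SE 0.06, edgeR adjusted p = 0.00046), a change of -24.9%. In the striatum the control levels of Elavl3 were 387, 336, 378 and 371 CPM in mice 58, 63, 64 and 65, and those of Trrap-FBΔ 325, 319, 298 and 343 CPM. Here the groups overlapped, since the highest Trrap-FBΔ striatum exceeded the lowest control, and the log2 fold change of -0.20 (SE 0.0624, edgeR adjusted p = 0.037) was small. This call for Elavl3 in the striatum was lost in 6 of 8 fits that left out 1 library, with edgeR adjusted p between 0.068 and 0.11 in those 6.

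Elavl4, the gene of HuD, was at 157, 135, 136 and 148 CPM in the control cortices and at 106, 112, 109.6 and 104 CPM in the Trrap-FBΔ cortices, in the same order of mice. The groups did not overlap, and the log2 fold change of -0.42 (SE 0.0549, edgeR adjusted p = 0.00025) was the largest fall among the 10 genes in this comparison. In the striatum the controls had 146, 124, 118 and 145 CPM of Elavl4 and the Trrap-FBΔ mice 114, 125, 121 and 118 CPM. The controls of mice 58 and 65 stood above all others and those of mice 63 and 64 lay among the Trrap-FBΔ values, and the log2 fold change of -0.16 (SE 0.0721) did not pass the test, with an edgeR adjusted p of 0.12. Without the control striatum of mouse 64 it was -0.21, with an edgeR adjusted p of 0.038.

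Elavl2, the gene of HuB, which is also made in other cells such as oocytes, passed the test in neither tissue. It was at 105 to 130.2 CPM in control cortices and 109.7 to 121 CPM in Trrap-FBΔ cortices, with a log2 fold change of -0.051 (SE 0.0636, edgeR adjusted p = 0.56). Striatal levels were 119 to 146 CPM and 118 to 141 CPM, with a log2 fold change of -0.028 (SE 0.0723, edgeR adjusted p = 0.80). Elavl1, the gene of HuR, the member of the family made in all tissues, had log2 fold changes of 0.061 (SE 0.0483, edgeR adjusted p = 0.36) in the cortex and 0.047 (SE 0.0469, edgeR adjusted p = 0.48) in the striatum.

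The sum of Elavl2, Elavl3 and Elavl4 per kilobase was 99.3 ± 5.48 CPM (SD, n = 4) in control cortices and 77.6 ± 1.94 CPM in Trrap-FBΔ cortices. It was 94.4 ± 5.45 CPM in control striata and 84.6 ± 2.65 CPM in Trrap-FBΔ striata. Elavl3 made up 58.8% ± 1.98 of this sum in control cortices and 56.5% ± 1.87 in Trrap-FBΔ cortices, and Elavl4 26.9% ± 0.867 and 25.8% ± 1.04. The share of Elavl2 was 14.3% ± 1.17 and 17.7% ± 0.885. These sums and shares are descriptions, and the ratios that compare these paralogs are tested below.

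Nova1 was the only one of the 10 genes that rose with the genotype. It was at 84.2, 87.9, 82.2 and 82.0 CPM in control cortices (mice 55, 58, 63 and 64) and at 101, 106, 100.2 and 98.7 CPM in the Trrap-FBΔ cortices of mice 57, 59, 60 and 61. The 2 groups were narrow and apart, and the log2 fold change was 0.27 (SE 0.0423, edgeR adjusted p = 0.00069), a rise of 20.8%. In the striatum Nova1 was at 198, 172, 175 and 231 CPM in the controls of mice 58, 63, 64 and 65 and at 239, 263, 237 and 257 CPM in the Trrap-FBΔ mice. The groups were again apart, with a log2 fold change of 0.36 (SE 0.0889, edgeR adjusted p = 0.013), but the controls were spread and that of mouse 65 came close to the Trrap-FBΔ values.

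Levels of Slc17a6 and Tcf7l2, which differed between the control tissues, are given here beside those of Nova1. Slc17a6 was at 281, 228, 201 and 340.2 CPM in the control striata of mice 58, 63, 64 and 65 and at 236, 296, 241 and 281 CPM in the Trrap-FBΔ striata, where the groups overlapped. Tcf7l2 was at 116, 94.9, 86.5 and 138 CPM in the same controls and at 141, 168, 140.1 and 152 CPM in the Trrap-FBΔ striata. All 4 Trrap-FBΔ striata lay above all 4 controls for Tcf7l2, chosen after its values were seen, as for Nova1. Groups were apart in this comparison, higher or lower, for 31.6% of all genes. The order of the control striata was the same for Tcf7l2 as for Slc17a6, with mouse 65 highest and mouse 64 lowest. For Nova1 mouse 65 was highest and mouse 63 lowest. In the cortex Tcf7l2 was at 6.18 to 14.6 CPM in controls and 6.11 to 8.54 CPM in Trrap-FBΔ. Slc17a6 was at 44.2 to 75.9 CPM and 36.5 to 42.9 CPM there. The part of the dissected region in the striatal difference of Nova1 was not tested. Without the control striata of mice 58 and 64, which had the lowest and the highest striatal projection neuron markers, the log2 fold change of Nova1 was 0.30 with an edgeR adjusted p of 0.087.

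Nova2, the paralog more widely used by cortical neurons, did not pass the test. It was at 168, 164, 141 and 179 CPM in control cortices and at 118, 156, 136 and 162 CPM in Trrap-FBΔ cortices, with a log2 fold change of -0.19 (SE 0.096, edgeR adjusted p = 0.15). In the striatum it was at 106, 72, 117 and 90.8 CPM in controls and at 96.6, 86.3, 81.9 and 92.3 CPM in Trrap-FBΔ mice, with a log2 fold change of -0.11 (SE 0.126, edgeR adjusted p = 0.54). In both tissues the groups overlapped, and Nova2 varied more between mice of a group than Nova1 did in the cortex. Per kilobase the Nova genes summed to 29.1 ± 1.93 CPM in control and 28.7 ± 2.49 CPM in Trrap-FBΔ cortices. Within this sum the share of Nova1 was 33.2% ± 2.22 and 40.7% ± 3.5. In the striatum the share of Nova1 was 65.9% ± 5.51 in controls and 72.7% ± 1.79 in Trrap-FBΔ mice.

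Rbfox2, the member of its family that is also made outside neurons, fell in both tissues by a small and even amount. It was at 448, 433, 418 and 435 CPM in control cortices and at 368, 393, 381 and 398 CPM in Trrap-FBΔ cortices, with a log2 fold change of -0.17 (SE 0.0494, edgeR adjusted p = 0.020). In the striatum it was at 333, 348, 366 and 344 CPM in controls and at 314, 295, 309.8 and 304 CPM in Trrap-FBΔ mice, with a log2 fold change of -0.19 (SE 0.0493, edgeR adjusted p = 0.017). In each tissue all 4 Trrap-FBΔ libraries lay below all 4 controls. The call in the cortex was lost without the Trrap-FBΔ cortex of mouse 60, with an edgeR adjusted p of 0.063, and that in the striatum without the Trrap-FBΔ striatum of mouse 59 (0.056). With the sex of the mouse as a covariate the edgeR adjusted p for Rbfox2 in the striatum was 0.053.

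Rbfox1 and Rbfox3, which are largely neuronal, passed the test in neither tissue. Rbfox1 was at 218 to 252 CPM in control cortices and 215 to 259 CPM in Trrap-FBΔ cortices, with a log2 fold change of -0.026 (SE 0.0649, edgeR adjusted p = 0.79). Striatal levels were 139 to 164 CPM and 146 to 179.6 CPM, with a log2 fold change of 0.10 (SE 0.0736, edgeR adjusted p = 0.34). Rbfox3, whose protein NeuN is used to count mature neurons, was at 244, 246, 248 and 274 CPM in control cortices and at 233, 236, 250.5 and 251 CPM in Trrap-FBΔ cortices. Its log2 fold change was -0.062 (SE 0.0522, edgeR adjusted p = 0.39) in the cortex and 0.076 (SE 0.0648, edgeR adjusted p = 0.40) in the striatum, where it was at 119.6 to 139 CPM in controls and 125 to 147 CPM in Trrap-FBΔ mice. The groups overlapped in both tissues. In the cortex Rbfox3 lay within the range of log2 fold changes of the 10 pan-neuronal genes, -1.29 to 0.0017, of which 3 also did not pass. In the striatum that range was -1.0 to -0.12, and Rbfox3, at 0.076, lay above it.

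Ptbp2 varied least of the 10 genes over the 16 libraries, with a root mean square deviation of log2 CPM from its mean of 0.0733, beside 0.139 to 0.65 for the others. It was at 176, 162, 159.9 and 165 CPM in control cortices and at 159, 165, 162 and 150.4 CPM in Trrap-FBΔ cortices, with a log2 fold change of -0.058 (SE 0.0483, edgeR adjusted p = 0.39). In the striatum it was at 168 to 179 CPM in controls and 169 to 181 CPM in Trrap-FBΔ mice, with a log2 fold change of 0.0075 (SE 0.045, edgeR adjusted p = 0.92). The groups overlapped in both tissues, and the coefficient of variation within a group was between 3.02% and 4.49%. Its paralogs were less even. Ptbp1, which is low in neurons, fell in the cortex by 0.20 on the log2 scale (SE 0.0566, edgeR adjusted p = 0.019) and had a log2 fold change of -0.055 (edgeR adjusted p = 0.44) in the striatum. Ptbp3 fell in the striatum, by 0.17 on the log2 scale (SE 0.0552, edgeR adjusted p = 0.039), and had a log2 fold change of -0.19 (edgeR adjusted p = 0.063) in the cortex. The striatal call of Ptbp3 was lost in 6 of 8 fits that left out 1 library, without the filter on low counts (edgeR adjusted p = 0.096) and with the sex covariate (0.11), and that of Ptbp1 in the cortex in 2 of 8. In the cortex Ptbp3 passed with DESeq2 (adjusted p = 0.045) and with all 16 libraries in 1 edgeR fit (0.034).

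Srrm4, the microexon regulator, had the lowest level per exon length of the 10 genes in all 4 groups. It was at 69.8, 79.7, 64.1 and 76.8 CPM in control cortices and at 57.8, 72.5, 65.7 and 66.9 CPM in Trrap-FBΔ cortices, groups that overlapped, with a log2 fold change of -0.15 (SE 0.0778, edgeR adjusted p = 0.17). In the striatum it was at 67.6, 61.8, 61.3 and 59.1 CPM in controls and at 55, 51.6, 54.0 and 51.8 CPM in Trrap-FBΔ mice. Here the groups were apart and the log2 fold change was -0.23 (SE 0.0519, edgeR adjusted p = 0.0079). The fit without the control striata of mice 58 and 64 called 3692 of all genes, beside 5704 with them. In that fit Srrm4 alone of the 10 passed, at a log2 fold change of -0.19 and an edgeR adjusted p of 0.047. Srrm3, its neuronal paralog, had a log2 fold change of 0.012 (SE 0.0716, edgeR adjusted p = 0.91) in the cortex and 0.19 (SE 0.0659, edgeR adjusted p = 0.051) in the striatum. Srrm2, a general spliceosome component, had log2 fold changes of -0.02 (edgeR adjusted p = 0.85) and 0.027 (edgeR adjusted p = 0.75).

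**Figure D3:**
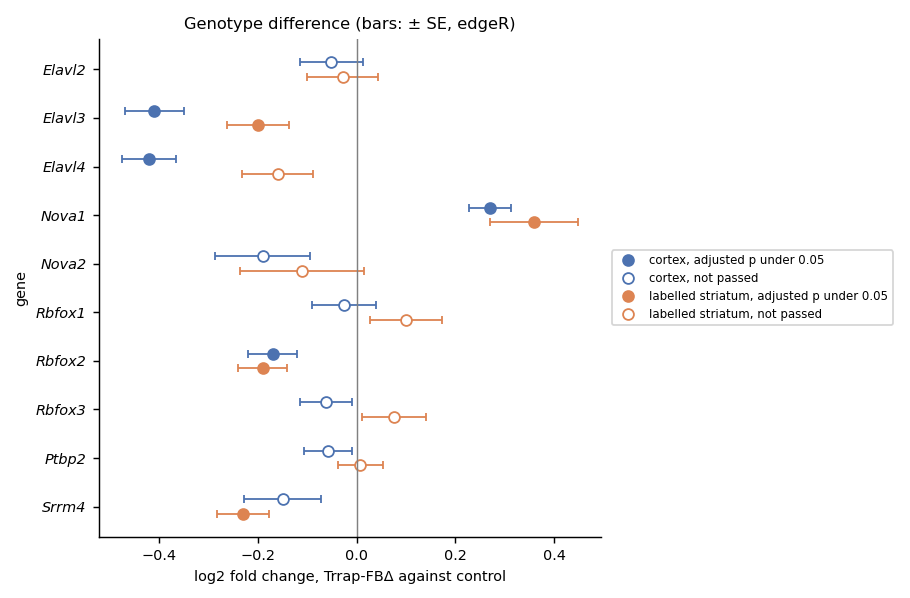
Log2 fold change of Trrap-FBΔ against control (x axis) for each of the 10 genes (y axis) in the cortex and in the tissue labelled striatum, with bars of ± SE from edgeR. Filled points passed an adjusted p of 0.05. Elavl3 and Elavl4 lie at -0.41 and -0.42 in the cortex and at -0.20 and -0.16 in the striatum, and Nova1 lies at 0.27 and 0.36.

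Whether the genotype acted differently in the tissues was tested with all 16 libraries in 1 fit. At 0 of 10 genes did the difference between the tissues pass the edgeR test, beside 0.437% of 19438 genes. The largest differences were those of Elavl4, 0.26 on the log2 scale (SE 0.0939, edgeR adjusted p = 0.26, unadjusted p = 0.014), and Elavl3, 0.22 (SE 0.0865, edgeR adjusted p = 0.31, unadjusted p = 0.023). These were the only 2 of the 10 with an unadjusted p under 0.05, beside 2347 of the 19438 genes, and DESeq2 also called 0 of the 10. The passing of Elavl4 in the cortex alone and of Srrm4 in the striatum alone is therefore not shown to be a difference between the tissues.

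Ratios of paralogs within a library need no normalization. For 14 comparisons, of 7 ratios in each tissue, the groups of 4 were set against each other with an exact permutation test, 2-sided, whose smallest possible p is 0.0286. This smallest p was reached by 4 of them, and each had a Benjamini-Hochberg adjusted p of 0.1, so none passed. The log2 ratio of Nova1 to Nova2 counts in the cortex was -1.12 to -0.78 in controls and -0.71 to -0.22 in Trrap-FBΔ mice, a mean difference of 0.47. That of Elavl2 to Elavl4 in the cortex was -0.37 to -0.19 and 0.043 to 0.12, a difference of 0.37. In the striatum the log2 ratio of Rbfox1 to Rbfox2 was -1.33 to -1.11 in controls and -1.08 to -0.80 in Trrap-FBΔ mice, a difference of 0.28. That of Srrm4 to Srrm3 was 0.043 to 0.18 and -0.40 to -0.15, a difference of -0.42. Elavl3 and Elavl4 kept a like ratio, with mean differences of 0.0049 (exact permutation p = 0.89) in the cortex and -0.042 (exact permutation p = 0.69) in the striatum. The ratio of Ptbp2 to Ptbp1, which rises as neurons form, was 4.59 in control and 5.06 in Trrap-FBΔ cortices, a log2 difference of 0.14 (exact permutation p = 0.11).

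**Figure D4:**
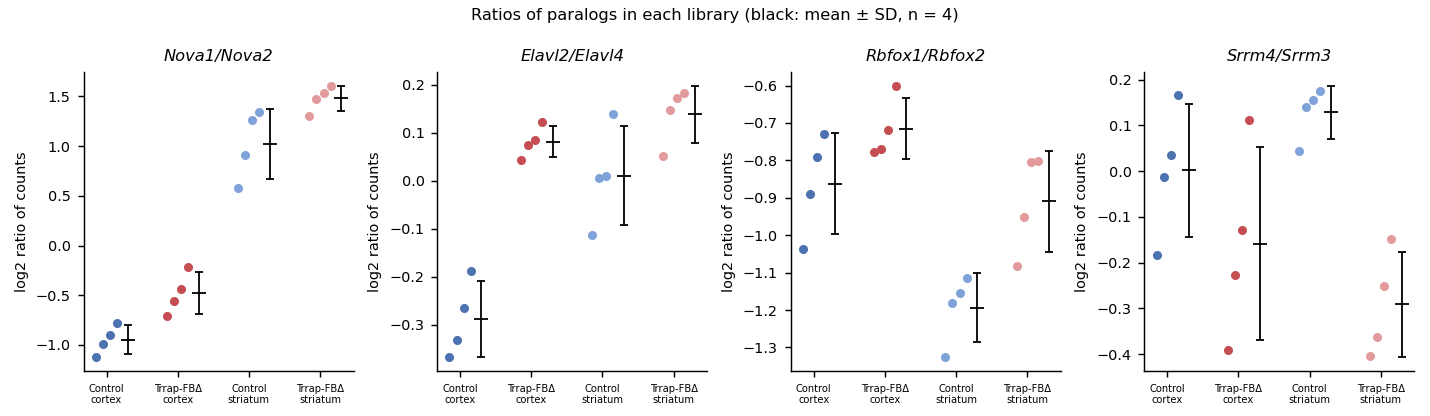
Log2 ratio of the counts of 2 paralogs (y axis, not starting at 0) in each of the 16 libraries, grouped on the x axis, with black bars for the mean and its SD, n = 4. Nova1 over Nova2 and Elavl2 over Elavl4 lie higher in all 4 Trrap-FBΔ cortices than in the control cortices, by means of 0.47 and 0.37, and Srrm4 over Srrm3 lies lower in all 4 Trrap-FBΔ striata.

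To describe the 10 genes by tissue, the striatum was compared with the cortex within each genotype. In the controls 6 of 10 genes differed by edgeR, 1 higher in the striatum and 5 lower, where 40.4% of 18284 genes tested differed, 20.3% higher and 20.1% lower. In the Trrap-FBΔ mice 9 of 10 differed, 4 higher and 5 lower, where 54.7% of 18872 genes differed, 27.4% higher and 27.4% lower. The libraries of the tissues were apart for 5 of the 10 genes in the controls, beside 38.7% of all genes, and for 8 in the Trrap-FBΔ mice, beside 50.5%. Each genotype has its own libraries in these comparisons, although the tissues of a mouse come from the same animal. The fits given here did not use that pairing.

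Nova1 was higher in the striatum, at a mean of 194 ± 27.2 CPM (SD, n = 4) against 84.1 ± 2.75 CPM in the cortex of controls, a log2 fold change of 1.21 (SE 0.0903, edgeR adjusted p = 9e-06). In Trrap-FBΔ mice it was at 249 ± 13.2 CPM against 102 ± 3.32 CPM, a log2 fold change of 1.29 (SE 0.0478, edgeR adjusted p = 2.7e-09). Nova2 was lower in the striatum, with log2 fold changes of -0.75 (SE 0.134, edgeR adjusted p = 0.0013) in controls and -0.68 (SE 0.0894, edgeR adjusted p = 4.7e-05) in Trrap-FBΔ mice. The paralogs thus lay in opposite order, with a count ratio of Nova1 to Nova2 of 0.518 in control cortices and 2.03 in control striata.

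All 3 Rbfox genes were lower in the striatum in both genotypes, with no overlap between the tissues. Rbfox3 showed the largest difference, at 126 ± 8.67 CPM against 253 ± 14.2 CPM in controls (SD, n = 4), a log2 fold change of -1.0 (SE 0.0626, edgeR adjusted p = 3.8e-06), and of -0.87 (SE 0.0559, edgeR adjusted p = 1.2e-07) in Trrap-FBΔ mice. Rbfox1 had log2 fold changes of -0.65 (SE 0.0697, edgeR adjusted p = 6e-05) and -0.53 (SE 0.07, edgeR adjusted p = 5.1e-05), and Rbfox2 of -0.32 (SE 0.054, edgeR adjusted p = 0.001) and -0.33 (SE 0.0449, edgeR adjusted p = 5.6e-05). Summed per kilobase the Rbfox genes gave 151 ± 4.79 CPM in control cortices and 99.0 ± 5.07 CPM in control striata. In this sum Rbfox2 took 35.3% ± 1.75 in control cortices and 43.2% ± 1.16 in control striata, and Rbfox3 28.8% ± 0.768 and 21.9% ± 0.802. The pan-neuronal sum moved with these genes, from 9493 to 10298 CPM in control cortices to 7738 to 8794 CPM in control striata, and its part was not tested.

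The Hu genes and Ptbp2 differed little between the tissues. Elavl3 had log2 fold changes of -0.13 (SE 0.0697, edgeR adjusted p = 0.18) in controls and 0.086 (SE 0.0556, edgeR adjusted p = 0.22) in Trrap-FBΔ mice. Elavl2, Elavl4 and Ptbp2 passed in the Trrap-FBΔ mice alone, with log2 fold changes of 0.21 (SE 0.057), 0.15 (SE 0.0433) and 0.14 (SE 0.0447), whereas in controls these were 0.19 (SE 0.0784), -0.10 (SE 0.0829) and 0.074 (SE 0.0497). The difference between these effects is the interaction given above, which passed for none of them. Srrm4 was lower in the striatum, with log2 fold changes of -0.22 (SE 0.0741, edgeR adjusted p = 0.04) in controls and -0.31 (SE 0.0606, edgeR adjusted p = 0.001) in Trrap-FBΔ mice. The call of Srrm4 in controls was lost in 5 of 8 fits that left out 1 library and with upper-quartile normalization (edgeR adjusted p = 0.096).

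**Figure D5:**
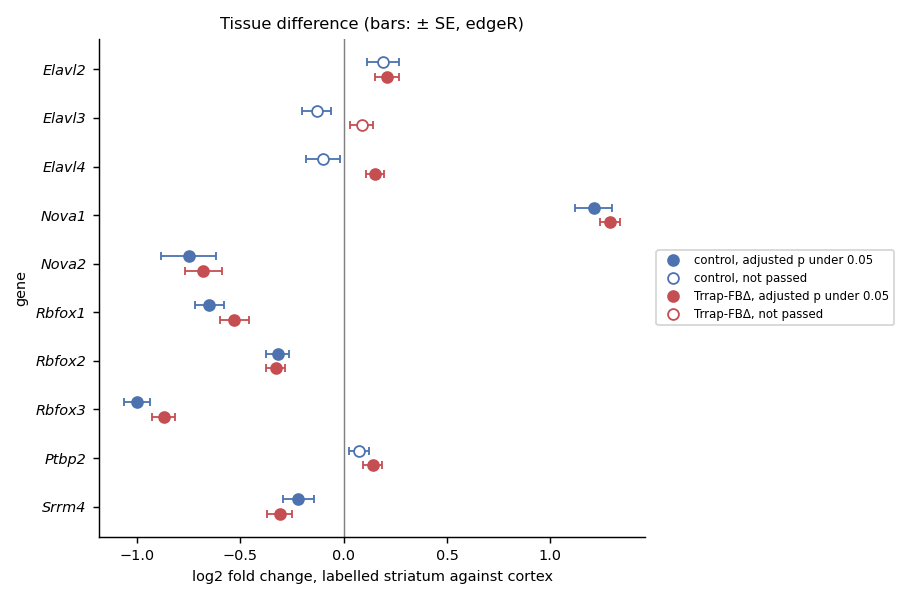
Log2 fold change of the tissue labelled striatum against the cortex (x axis) for each of the 10 genes (y axis) in control and Trrap-FBΔ mice, with bars of ± SE from edgeR. Filled points passed an adjusted p of 0.05. Nova1 lies at 1.21 and 1.29, Rbfox3 at -1.0 and -0.87, and the Hu genes and Ptbp2 lie between -0.13 and 0.21.

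Ordered by CPM per kilobase of exon in control cortices, Elavl3 had 58.4 ± 3.71, Rbfox1 54.3 ± 3.66, Rbfox2 53.2 ± 1.54 and Rbfox3 43.5 ± 2.45 (SD, n = 4). Below these came Elavl4 with 26.7 ± 1.91, Nova2 with 19.5 ± 1.87, Ptbp2 with 18.0 ± 0.81, Elavl2 with 14.2 ± 1.26, Nova1 with 9.61 ± 0.315 and Srrm4 with 8.37 ± 0.81. Of neighbours in this order Elavl3 and Rbfox1, Rbfox1 and Rbfox2, and Nova2 and Ptbp2 overlapped in the ranges of their libraries. In Trrap-FBΔ cortices Elavl3, with 43.9 ± 2.26, ranked behind Rbfox1 and Rbfox2, and its range overlapped those of Rbfox2 and Rbfox3. In control striata the order was Elavl3 with 53.4 ± 3.24, Rbfox2 with 42.7 ± 1.69, Rbfox1 with 34.6 ± 2.65, Elavl4 with 24.8 ± 2.65 and Nova1 with 22.2 ± 3.11. Elavl4 overlapped with Nova1 there, and Nova1 with Rbfox3, at 21.7 ± 1.49. In Trrap-FBΔ striata Nova1 stood at 28.5 ± 1.51, above Rbfox3 with 22.9 ± 1.68 and Elavl4 with 22.2 ± 0.897, which overlapped with each other.

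Transcripts that these proteins are known to act on were followed at the level of the whole gene, since the counts do not resolve isoforms. Gap43, a growth cone protein whose mRNA is bound by HuD, fell in both tissues, with log2 fold changes of -0.96 (SE 0.0843, edgeR adjusted p = 2.8e-05) in the cortex and -0.73 (SE 0.0546, edgeR adjusted p = 6.4e-05) in the striatum. Vamp1, a synaptic vesicle protein regulated by Rbfox1, rose in the cortex by 0.38 on the log2 scale (SE 0.073, edgeR adjusted p = 0.0025), with 0.29 (SE 0.232, edgeR adjusted p = 0.37) in the striatum. The cortical call of Vamp1 was lost with all 16 libraries in 1 edgeR fit (adjusted p = 0.15) and with the mouse as a random block in limma (adjusted p = 0.18). Rest, the repressor of neuronal genes spliced by Srrm4, rose in the striatum by 0.23 on the log2 scale (SE 0.0698, edgeR adjusted p = 0.034), with 0.028 (edgeR adjusted p = 0.84) in the cortex. This call of Rest was lost in 5 of 8 fits that left out 1 library, without the filter on low counts (edgeR adjusted p = 0.055) and with the sex covariate (0.075). Dlg4, the gene of PSD-95, whose exon is held back by Ptbp2, had log2 fold changes of 0.055 (edgeR adjusted p = 0.54) and -0.0081 (edgeR adjusted p = 0.95). How these genes were spliced is not measured by gene counts.

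Other RNA-binding proteins gave a wider setting. Of 24 hnRNP proteins, which coat nascent RNA and act on splicing, 2 rose and 8 fell in the cortex and 4 rose and 6 fell in the striatum, with median log2 fold changes of -0.073 and -0.011. The largest change of the hnRNP list was that of Pcbp4, a poly(C)-binding protein, which fell by 0.83 on the log2 scale (SE 0.0718, edgeR adjusted p = 2.7e-05) in the cortex and by 0.48 (SE 0.0867, edgeR adjusted p = 0.0027) in the striatum. Hnrnpab fell by 0.32 and 0.29 on the log2 scale (edgeR adjusted p = 0.00064 and 0.0022), Hnrnph1 fell by 0.30 and Hnrnpa2b1 by 0.27 in the cortex, and in the striatum Hnrnpdl fell by 0.27 and Pcbp3 rose by 0.28.

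Of 13 SR and Tra2 proteins, which mostly promote exon inclusion, 4 rose and 3 fell in the cortex and 4 rose and 2 fell in the striatum, with medians of -0.05 and -0.04. Srsf11 rose in both tissues, by 0.36 (SE 0.0539, edgeR adjusted p = 0.00058) and 0.35 (SE 0.0493, edgeR adjusted p = 0.00078) on the log2 scale. In the cortex Srsf9 and Srsf5 rose by 0.25 and 0.19 and Srsf12 fell by 0.23, and in the striatum Srsf4 rose by 0.30 and Srsf3 and Tra2a fell by 0.22 and 0.21. Of 21 proteins of mRNA transport and translation 1 rose and 7 fell in the cortex and 3 rose and 5 fell in the striatum, with medians of -0.03 and -0.028. Stau2, a dendritic transport protein, fell by 0.41 (SE 0.0473, edgeR adjusted p = 0.00013) and 0.29 (SE 0.0478, edgeR adjusted p = 0.0019) on the log2 scale. Cpeb1, which acts on the poly(A) tail, fell by 0.28 and 0.41 and Ybx1 by 0.32 and 0.41, while Msi2 rose by 0.26 in the cortex and Fxr2 by 0.31 in the striatum. Ybx1, with edgeR adjusted p of 0.02 and 0.044, lost its call in 3 of 8 cortical and 5 of 8 striatal fits that left out 1 library, and in the cortex with all 16 libraries in 1 fit (0.061).

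Of 17 other tissue-restricted splicing factors 15 were tested, and 1 rose and 1 fell in the cortex and 1 rose and 4 fell in the striatum. In the cortex Celf1 rose by 0.16 and Khdrbs1 fell by 0.16 on the log2 scale, and in the striatum Celf6 rose by 0.43, while Rbm24, Khdrbs3 and Celf4 fell by 0.42, 0.39 and 0.18. Leaving out 1 library lost the call of Celf1 in 6 of 8 fits, of Khdrbs1 and Rbm24 in 5 and of Celf4 in 4, and 0 to 2 genes of this list then passed in the cortex. Over these lists and the 5 close relatives, 80 genes, 8 rose and 20 fell in the cortex and 12 rose and 18 fell in the striatum, beside the shares of all genes given above. In the same comparisons the 10 neuronal regulators held 1 rise and 3 falls in each tissue. Elavl3, Nova1 and Rbfox2 passed in both tissues, 3 of the 4 called in each, where 57.2% of all genes called in the cortex and 62.1% of those called in the striatum passed in both.

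The gene with the most similar profile over the 16 libraries was sought among 19438 genes, as the smallest root mean square difference of log2 CPM centred on its mean. For Elavl3 it was Atat1, a tubulin acetyltransferase, at 0.0528, with log2 fold changes of -0.40 and -0.17 by genotype in cortex and striatum. For Elavl4 it was Bicd2, a dynein adaptor, at 0.0811, with -0.31 and -0.17. For Nova1 it was Nipal2 at 0.10, with 0.18 and 0.15 by genotype and 1.25 between the control tissues. Rbfox2 lay closest to Nub1 (0.0375), Rbfox1 to Dagla (0.0755), Rbfox3 to Mylip (0.0909), Nova2 to Sptan1 (0.114), Ptbp2 to Capn7 (0.0445) and Srrm4 to the calcium channel gene Cacna1c (0.0663). These distances describe likeness of levels over tissues and genotypes that all the libraries share.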

How the data were processed

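Members and gene lists were chosen with earlier results of these data known. The authors made stranded mRNA libraries with poly(A) selection, aligned single-end reads to GRCm38 with STAR 2.5.4b and deposited raw counts per Ensembl gene, made with featureCounts 1.5.0 in stranded mode, without normalization. Symbols and exon lengths came from GENCODE M21, also GRCm38, and groups from the labels. Each comparison was fitted in R 4.3.3 with edgeR 4.0.16 (filterByExpr, TMM, quasi-likelihood test, Benjamini-Hochberg adjustment over all genes, threshold 0.05). The SE was taken from the log2 fold change and F. Named were the 10 genes, Trrap, 5 relatives, mRNA targets, up to 4 called genes of each RNA-binding list and up to 2 of each marker list per tissue by size of change, and the gene with the nearest profile. Some genes that this rule names are not reported here. Slc17a6, Ppp1r1b and Tcf7l2 were named after their values were seen. Alternatives used DESeq2 1.42.0, limma 3.58.1, other normalizations, no filter, a fold change of 1.2, covariates and left-out libraries. Fits were tested on simulated data. Replicates are separate mice, and totals were 28743866 to 48761429 counts per library.

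Same-numbered cortex and striatum were taken to come from 1 mouse, by the number in the labels. The tissue comparisons printed above were fitted without this pairing, and fits with the mouse as a block were alternatives. Deviations from group means correlated with r of 0.0845 to 0.244 in 7 same-numbered pairs and -0.173 to 0.123 in 25 other pairs, ranges that overlap. No library duplicated another (lowest chi-square over degrees of freedom 8.26 in 24 pairs).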

Additional observations from a re-analysis of the deposited data

Results flagged for a closer look

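In groups of 4 libraries, the gap of the highest or lowest library to its nearest neighbour was set against the whole range for each of the 10 genes, 40 groups in all, and 2 exceeded Dixon's critical value, where chance would flag about 1 in 20. Elavl3 in the control cortex of mouse 63 stood at 364 CPM, below the other control cortices at 413 to 417 CPM, and still above all Trrap-FBΔ cortices. Rbfox3 in the control cortex of mouse 64 stood at 274 CPM, above the other control cortices at 244 to 248 CPM.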

How the results depend on the processing

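The calls of the 10 genes kept their number with DESeq2 size factors and with the DESeq2 test in every comparison. Against a fold change of 1.2, 2 of 10 passed for the genotype in the cortex, beside 1381 of 18268 genes tested. In the striatum 0 of 10 passed, beside 1364 of 18872. Between the tissues of Trrap-FBΔ mice 4 of 10 passed this threshold. With the sex of the mouse as a covariate 2 passed in the striatum, Nova1 and Srrm4. Over all genes that fit called 4312 in the striatum, beside 5704 in the main fit. Leaving out the control striata of mice 58 and 64, chosen after seeing their markers, left 1, Srrm4, at an edgeR adjusted p of 0.047. Over all genes 3692 passed in that smaller fit. In the cortex 3 passed without the control cortices of mice 58 and 63, the highest in those markers, with Rbfox2 lost (edgeR adjusted p = 0.054). Over all genes 4178 passed there, beside 6090 in the main fit. Leaving out 1 library at a time gave 3 to 4 calls in the cortex, 2 to 4 in the striatum, 5 to 7 between control tissues and 8 to 9 between Trrap-FBΔ tissues, and 0 for the difference between tissues. The ratios could hardly pass at this group size, so their count of 0 says nothing of stability. The lowest count in the striatum, 2, came without the Trrap-FBΔ striatum of mouse 59, where 4443 of all genes passed. With the mouse as a replicate block 6 genes passed between control tissues, 9 between Trrap-FBΔ tissues and 0 for the interaction, and with the mouse as a random block in limma 4 passed for the genotype in each tissue, so the pairing changed no count. Replicates are few and the depth of at least 1910 counts per gene leaves the spread between mice as the limit.

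Values near 0 that passed no test changed sign under some settings. Leaving out 1 library gave log2 fold changes of -0.068 to 0.021 for Rbfox1, -0.053 to 0.06 for Srrm3, -0.048 to 0.038 for Srrm2 and -0.054 to 0.083 for Rest in the cortex, and of -0.081 to 0.021 for Elavl2, -0.01 to 0.025 for Ptbp2 and -0.064 to 0.055 for Dlg4 in the striatum. The difference between tissues ran from -0.032 to 0.075 for Elavl2, -0.028 to 0.19 for Nova2 and -0.033 to 0.0095 for Rbfox2. The log2 ratio of Elavl3 to Elavl4 differed by -0.045 to 0.048 in the cortex and -0.081 to 0.028 in the striatum, and that of Rbfox3 to Rbfox1 by -0.072 to 0.026 and -0.071 to 0.018. Without the control cortices of mice 58 and 63 Rest was at -0.046 in the cortex and the difference for Rbfox2 at 0.014. Without the control striata of mice 58 and 64 Nova2 was at 0.13, Ptbp2 at -0.028, Trrap at 0.004 and Dlg4 at 0.041 in the striatum, with differences between tissues of -0.044 for Elavl2 and 0.00056 for Rbfox2. Upper-quartile normalization gave 0.012 for Dlg4 in the striatum and 0.012 for the difference for Rbfox2, the sex covariate -0.0086 for Srrm2 in the striatum, the random block 0.0016 for Dlg4 and the mouse block 0.014 for Trrap between control tissues. The cause was not tested.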
